A study of Zea mays with 4 samples.

Results

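Starch synthesis genes were followed in aerial tissue of 2 maize inbred lines, Cm489 and F98902. The genes sought were wx1, SBEIIb, sh2, bt2 and su1. A probe set belonged to a gene when the platform annotation, updated through Entrez gene numbers, gave that gene by symbol or synonym. This found 4 genes, with 6 probe sets, among 1108 named genes and 17555 probe sets without controls: 1 for wx1 (LOC541854), 2 for SBEIIb (LOC542238), 2 for sh2 (LOC542761) and 1 for bt2 (LOC541902). No probe set was assigned to su1 by these names, and su1 was not analysed here. This does not show that the array lacks a probe set for su1.

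Biotin-labelled cRNA amplified from total RNA was measured on Affymetrix maize arrays, with 2 samples of each line and no treatment named in the labels. All plants grew in soil under a 16/8 light cycle, and aerial material was taken during flower development. The extraction note of Cm489 replicate 1 carries the name of Cm489 replicate 2, so the labels leave unsettled which extract that array holds. The Cm489 arrays correlated at r = 0.952 across probe sets and those of F98902 at r = 0.938, and probe sets are not independent replicates. Neither the organ nor the number of plants behind each sample is stated. Each sample name carries a different number after the letters pl, which was not taken as a plant number here. The p-values thus measure the spread between these samples, which may be technical. Values are log2 signals made with GCRMA, which places probe sets without specific signal at a low, almost constant floor. A probe set under log2 4 was taken as at the floor, and 32.2% of all probe sets lay there on all 4 arrays. No level can be read from such a value, and values below 4 have no order. A transcript that is missing and one whose sequence departs from the probes cannot be told apart on these arrays, nor can fewer cells of a type and less RNA per cell.

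Starch is built in plastids from ADP-glucose. ADP-glucose pyrophosphorylase makes this donor, starch synthases extend linear glucan chains, branching enzymes add branch points, and debranching enzymes trim misplaced ones. In the maize endosperm, the storage tissue of the kernel, most ADP-glucose is made in the cytosol and carried into the plastid, while leaves make transitory starch with other copies of several of these enzymes. The genes examined are best known from kernel mutants: sh2 (shrunken2) and bt2 (brittle2) encode the large and the small subunit of the endosperm ADP-glucose pyrophosphorylase, wx1 (waxy1) encodes the granule-bound starch synthase that makes amylose, and SBEIIb (amylose-extender1) encodes a branching enzyme of amylopectin.

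The donor-forming enzyme gave signal above, but near, the floor limit from its small subunit gene. The bt2 probe set Zm.17147.1.A1_at read 4.70 and 4.83 in Cm489 and 5.55 and 4.35 in F98902 (replicates 1 and 2 in each line), all above the floor limit of 4. The Cm489 values lay between those of F98902, so the lines overlapped. For the large subunit gene, the sh2 probe set Zm.329.2.S1_a_at read 5.16 and 3.16 in Cm489 and 2.56 and 3.01 in F98902. Its signal passed 4 on 1 array, Cm489 replicate 1, and was below 4 on the other 3. The second sh2 probe set, Zm.329.2.A1_at, read 2.11 and 2.08 in Cm489 and 2.11 and 2.08 in F98902, at the floor throughout, so the sh2 probe sets disagreed on Cm489 replicate 1.

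The wx1 probe set was at the floor, and the SBEIIb probe sets disagreed. The single wx1 probe set, Zm.12134.3.A1_a_at, read 1.93 and 1.91 in Cm489 and 1.93 and 1.90 in F98902. Its range over the 4 arrays was 0.035, close to the median range of 0.038 among all probe sets at the floor. The SBEIIb probe set Zm.143.2.A1_a_at read 4.45 and 6.09 in Cm489 and 4.55 and 4.07 in F98902. It stood above 4 on all 4 arrays, but near that limit except on Cm489 replicate 2, which lay apart from the rest. Cm489 replicate 1 was within the range of F98902. The other SBEIIb probe set, Zm.143.3.S1_a_at, read 2.33 and 2.30 in Cm489 and 2.33 and 2.27 in F98902, at the floor on every array.

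**Figure D1:**
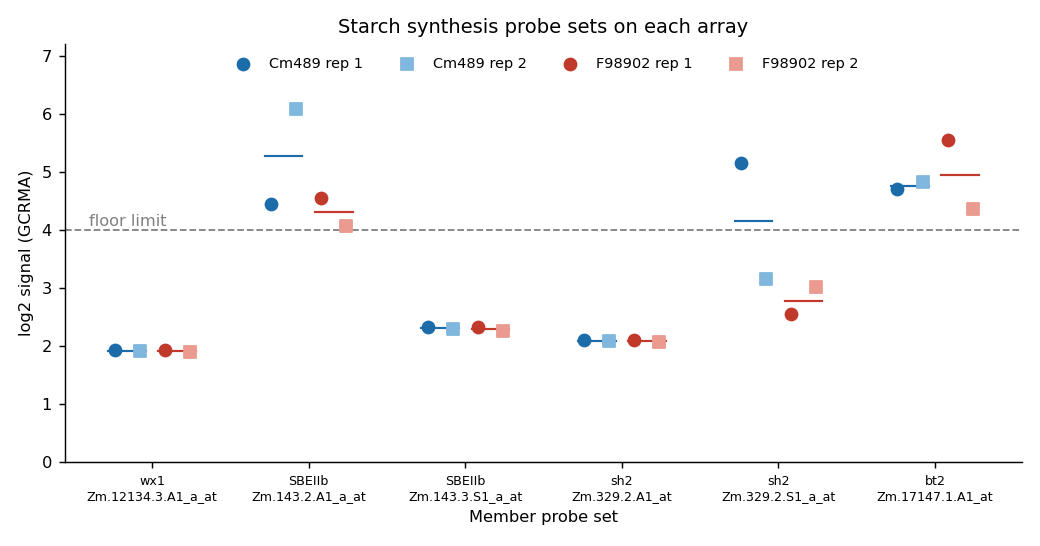
Log2 signal of each of the 6 member probe sets (x axis) on the 4 arrays, with short lines at the mean of each line and a dashed line at the floor limit of 4. The wx1 probe set, 1 SBEIIb and 1 sh2 probe set lie at the floor on every array, and each of the other 3 has a different array as its highest.

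Thus 3 of the 6 probe sets were at the floor on all 4 arrays, against 28.2% of the 1452 probe sets with a named gene. A floor value in 1 probe set did not settle the gene: among 222 named genes with several probe sets, 69 (31.1%) had 1 at the floor on every array and another at or above 4 on every array, and SBEIIb was among them. For wx1 only 1 named probe set was at hand.

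In the 3 probe sets that rose above the floor on any array, a different array was highest in each. Cm489 replicate 2 was highest for SBEIIb, 1.54 above the next array, and the other 3 arrays spanned 0.48. Cm489 replicate 1 was highest for sh2, 1.16 above the floor limit, and the other 3 arrays were below that limit. F98902 replicate 1 was highest for bt2, 0.72 above the next, and the other 3 spanned 0.48. The range over the 4 arrays was 2.02 for SBEIIb and 1.19 for bt2, where the median over all tested probe sets was 1.46.

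The comparison of the lines asked whether any of these genes differed between Cm489 and F98902. A probe set was tested when it reached log2 4 on at least 2 arrays, which 11241 did, and 2 of the 6 members, 1 of SBEIIb and 1 of bt2. The test was limma's moderated test, with p-values adjusted over all 11241 by Benjamini-Hochberg and called under 0.05. Neither member passed, 0 of 2, where 1.78% of all tested probe sets passed. An unadjusted p under 0.05 (limma) was found for 0 members and for 1182 of the 11241 tested probe sets. The smallest difference that passed for any probe set was 3.62 in size, so the test called nothing smaller on these arrays. The arrays of the lines overlapped for both members, while 38.0% of all tested probe sets had arrays that did not overlap.

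SBEIIb was at 5.27 ± 1.16 in Cm489 and 4.31 ± 0.34 in F98902 (mean ± SD, n = 2 each), a difference of -0.96 (SE 0.72, limma adjusted p = 0.816) with a 95% interval from -2.94 to 1.02. The value rested on Cm489 replicate 2: it was -0.14 without that array and -1.78 without Cm489 replicate 1. The bt2 probe set was at 4.76 ± 0.09 in Cm489 and 4.95 ± 0.84 in F98902, a difference of 0.19 (SE 0.57, limma adjusted p = 0.967) with an interval from -1.40 to 1.77. It turned to -0.41 without F98902 replicate 1 and was 0.78 without F98902 replicate 2. Both intervals include differences beyond 1 on the log2 scale in either direction, so equal levels are not shown. An exact test of 2 arrays against 2 cannot give a two-sided p below 0.333. For sh2 no difference between the lines is given, since its brighter probe set was below 4 on 3 of the 4 arrays.

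The rest of the pathway was read from a fixed list of symbols, which matched 28 probe sets of 24 genes beside the members. One of these, ae1 (LOC541992), shared only a name with the branching enzyme gene and was at the floor. Of the 28, 17 were tested and 0 passed (limma), against 1.78% of all tested probe sets. BMY1 and sus2, 2 of the 17, had an unadjusted p under 0.05, as had 1182 of all 11241 tested probe sets. All of the 17 but BMY1 had differences under 3.62 in size, the smallest that passed for any probe set. The mean was lower in F98902 for 11 of the 17 (51.2% of all tested probe sets) and higher for 6 (48.8%). The median difference was -0.12, where the median over all tested probe sets was -0.019. The arrays of the lines did not overlap for 7 of the 17, a share close to the 38.0% of all tested probe sets.

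Other ADP-glucose pyrophosphorylase copies were above the floor on every array. Agpsemzm (LOC542072), a small subunit gene known from the embryo, read 8.86 and 9.09 in Cm489 and 11.13 and 9.38 in F98902. Both F98902 arrays lay above both Cm489 arrays, with F98902 replicate 1 well above the other. The difference was 1.28 (SE 0.73, limma adjusted p = 0.732), and 0.40 without F98902 replicate 1. The gene agpsl1 (LOC542295), also annotated as an ADP-glucose pyrophosphorylase gene, read 8.75 and 10.09 in Cm489 and 11.01 and 9.29 in F98902, with overlapping lines. AGP2 (LOC542737), matched by symbol alone, ran from 7.06 to 8.89.

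Among starch synthase genes, 2 were at the floor on every array, du1 (LOC541657), the dull1 synthase of the kernel, from 2.06 to 2.09, and zSSIIa (LOC542481), the sugary2 synthase, from 2.34 to 2.38. The other 2 were above it. The gene ss1 (LOC541669), for starch synthase I, read 9.01 and 9.03 in Cm489 and 8.17 and 7.97 in F98902. Here the arrays of a line lay close together and the lines did not overlap, with a difference of -0.95 (SE 0.40, limma adjusted p = 0.565). It did not pass, and ran from -1.05 to -0.85 with any 1 array left out. The gene zSSIIb (LOC541656), a synthase known from leaves, read 5.85 and 7.57 in Cm489 and 6.17 and 5.03 in F98902, with Cm489 replicate 2 highest, as for SBEIIb.

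The branching enzyme gene sbe1 (LOC542315) read 8.39 and 8.04 in Cm489 and 8.98 and 8.48 in F98902, a difference of 0.51 (SE 0.45, limma adjusted p = 0.840). The debranching genes stood near the floor limit: iso2 (LOC542679) and iso3 (LOC542095), isoamylase genes, ran from 4.37 to 4.64 and from 3.44 to 4.78, and zpu1 (LOC541711), the pullulanase gene, from 3.97 to 5.598. None of the 3 had lines that stood apart.

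The largest difference in the pathway list was in starch breakdown. BMY1 (LOC542472), a beta-amylase gene, read 6.44 and 10.71 in Cm489 and 2.36 and 2.29 in F98902. It was at the floor on both F98902 arrays and above it on both Cm489 arrays, which themselves differed by 4.27. The mean of the 2 Cm489 arrays lay 4.58 above the floor limit. The fitted difference of -6.25 (SE 1.55) did not pass (limma adjusted p = 0.272, unadjusted p = 0.0153). With values under 4 raised to 4 the adjusted p was 0.462, and over the alternatives in which it was tested it ran from 0.135 to 0.730.

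Genes that supply carbon to starch included some at the floor and some well above it. The gene bt1 (LOC732804), brittle1, which carries ADP-glucose into the endosperm plastid, was at the floor, from 2.42 to 2.49, and so was mn1 (LOC542590), the miniature1 cell wall invertase of the kernel, from 2.06 to 2.09. The phosphohexose isomerase gene phi1 (LOC542313) read 11.34 and 11.58 in Cm489 and 12.08 and 12.07 in F98902, with no overlap (limma adjusted p = 0.782). The sucrose synthase gene sh1 (LOC542365, shrunken1) read 12.42 and 12.35 in Cm489 and 12.49 and 12.83 in F98902 on 1 probe set, while its other 2 probe sets were at the floor on every array. Of the other sucrose synthase genes, sus1 (LOC542247) ran from 13.71 to 14.37 with overlapping lines, and sus2 (LOC542091) read 9.46 and 9.28 in Cm489 and 8.15 and 8.31 in F98902. The sus2 arrays of the lines did not overlap, and the difference did not pass (limma adjusted p = 0.462).

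The regulators o2 (LOC542375) and pbf1 (LOC542353), opaque2 and the prolamin-box factor of the endosperm, were at the floor on all 4 arrays. Of Nkd1 (LOC542199), an endosperm regulator also listed as IDDveg9, 1 probe set ran from 5.32 to 8.53 and the other was at the floor. In all, 6 genes of the list other than ae1 had every probe set at the floor on all arrays: du1, zSSIIa, bt1, mn1, o2 and pbf1.

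**Figure D2:**
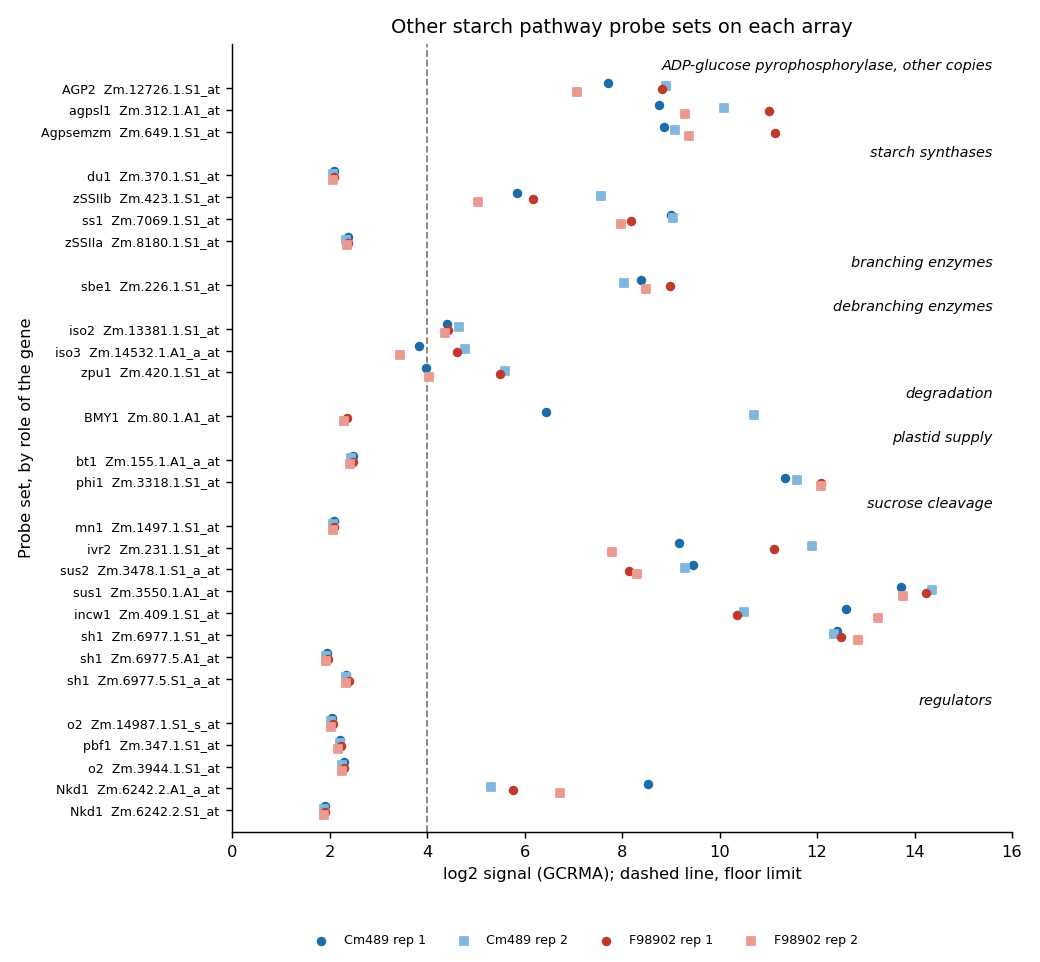
Log2 signal (x axis) of the other starch pathway probe sets on the 4 arrays, grouped by the role of the gene and without ae1, with a dashed line at the floor limit of 4. The probe sets of du1, zSSIIa, bt1, mn1, o2 and pbf1 lie at the floor on all arrays, and BMY1 lies there in F98902 alone.

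**Figure D3:**
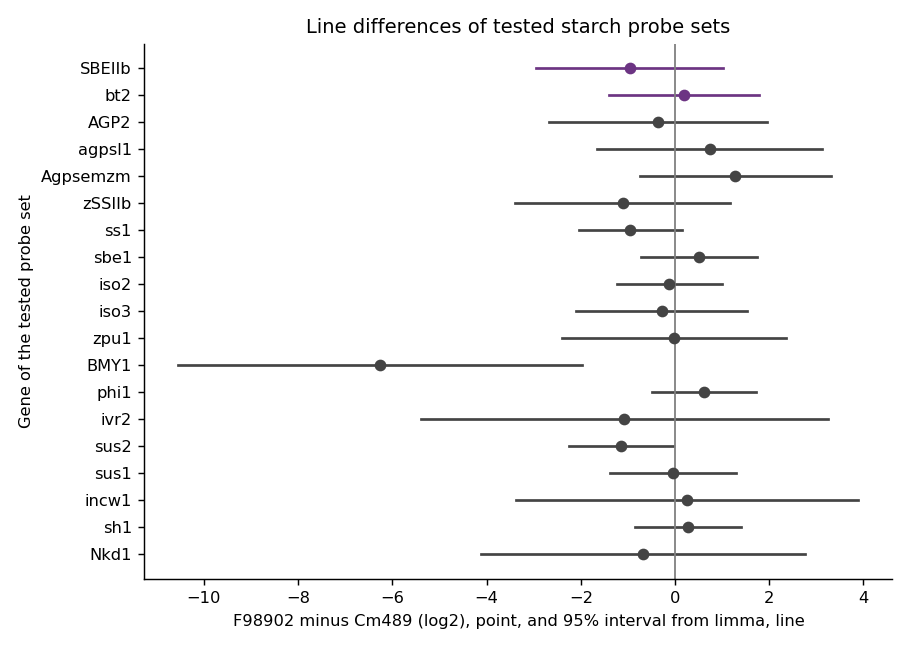
Difference between the lines (F98902 minus Cm489, log2, points) with its 95% interval from limma (lines) for the 19 tested starch probe sets, members in purple. The intervals of SBEIIb and bt2 include 0, and none of the 19 passed after adjustment.

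For both tested members the widest difference between arrays of a line was larger than that between the means of the lines. For SBEIIb, subtracting replicate 1 from replicate 2 gave 1.64 in Cm489 and -0.48 in F98902. For bt2 it gave 0.13 and -1.19. Both members were thus higher in replicate 2 of Cm489 and in replicate 1 of F98902. So were 11 of the 17 tested pathway probe sets and 31.3% of all tested probe sets. Probe sets whose arrays in either line were both below 4 were not counted among these, but stayed in both totals. Of these 11, ivr2 (LOC542324), the vacuolar invertase gene, had the widest differences in both lines, at 2.74 and -3.32, and incw1 (LOC542314), for a cell wall invertase, ran the opposite way at -2.09 and 2.89.

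Many markers of tissue and some controls of RNA integrity ran in the same directions between these arrays, and other controls did not. RNA integrity was read from control transcripts as 5' signal minus 3' signal, again taking replicate 1 from replicate 2. Cyclophilin gave 0.59 (Cm489) and -0.82 (F98902), GAPDH 0.83 and -1.63. Ubiquitin gave 0.05 and 0.24, while EF1-alpha gave -1.02 and -1.10. Of the secondary wall markers of the stem, 4 of 4 probe sets were higher in replicate 2 of Cm489 and replicate 1 of F98902. Of the green tissue markers, 8 of 10 tested probe sets were. These 10 belong to 7 genes, and several of the 8 are of Ppdk1. The exceptions were me3 and another Ppdk1 probe set, Zm.4471.4.A1_at. The part of tissue makeup or RNA integrity in the values of SBEIIb and bt2 was not tested.

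**Figure D4:**
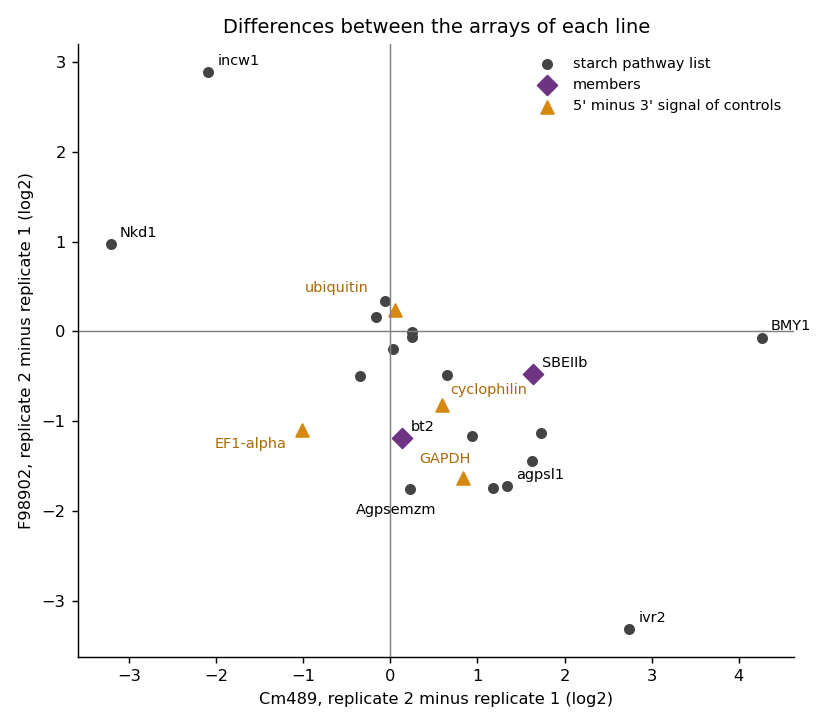
Replicate 2 minus replicate 1 within Cm489 (x axis, log2) and within F98902 (y axis, log2) for SBEIIb and bt2 (diamonds), the tested pathway probe sets (circles) and 4 control transcripts, as 5' signal minus 3' signal (triangles). SBEIIb, bt2, cyclophilin and GAPDH lie in the lower right part, ubiquitin and EF1-alpha outside it.

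The named genes whose pattern over the 4 arrays was nearest were sought for each tested member, by the root mean square difference of values centred on their mean, among 975 probe sets of other named genes. For SBEIIb these were Pti1d (LOC100037784) at 0.13, IIG1 (LOC542597) at 0.18 and the ferritin gene fer1 (LOC542553) at 0.19. Like SBEIIb, all 3 were highest on Cm489 replicate 2. For bt2 they were GAPC (LOC542367), for cytosolic glyceraldehyde phosphate dehydrogenase, at 0.092, and ubc7 (LOC542600) and ltk1 (LOC541658), each at 0.11. All 3 were highest on F98902 replicate 1, as bt2 was. For both members the shared highest array follows from choosing genes by their pattern and is no separate result. No starch pathway gene was among these 6. Each profile has only 4 points.

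**Figure D5:**
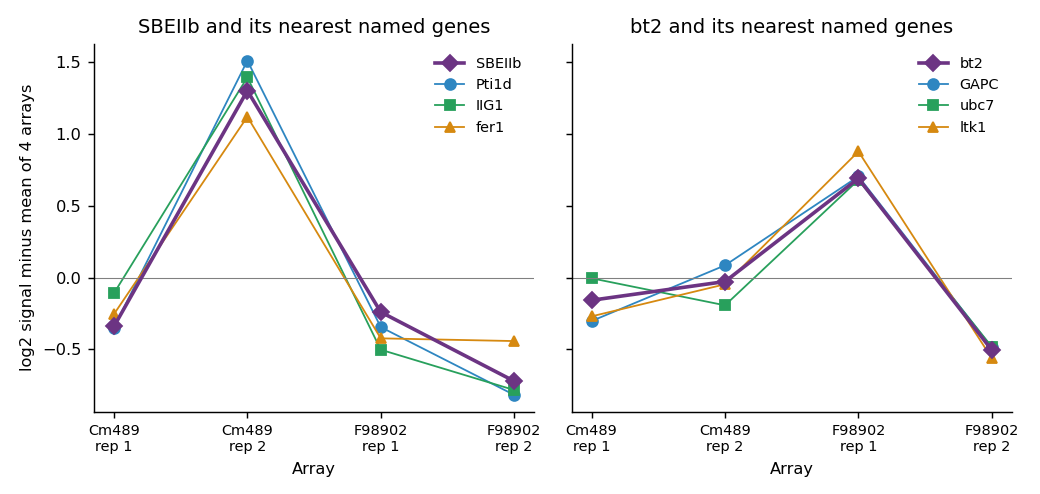
Log2 signal minus the mean of the 4 arrays (y axis) on each array for SBEIIb (left) and bt2 (right), each with the 3 nearest named genes. The SBEIIb set peaks on Cm489 replicate 2 and the bt2 set on F98902 replicate 1, which follows from choosing the genes by their pattern.

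The material was checked against marker lists. Of 18 probe sets for endosperm and kernel storage genes, leaving out genes that shared only a name, 17 were at the floor on all 4 arrays, the basal endosperm genes BETL1 and betl2 and the zein genes gz50 and dzs18 among them. The exception was 1 probe set of the zein gene gz27, which read 6.68 and 9.58 on the Cm489 arrays and 8.10 and 6.45 on those of F98902, and whose other 2 probe sets were at the floor. This gz27 probe set was highest on Cm489 replicate 2, the array on which SBEIIb was highest, and its part in the SBEIIb value was not tested. The summed signal of these 18 probe sets on a log2 scale, 7.51 and 9.72 for Cm489 and 8.47 and 7.36 for F98902, was made up of that 1 gz27 probe set and of 17 at the floor, and so gives no level for the endosperm genes as a class. Of the genes left out for sharing only a name, MRP1 (LOC100037760) ran from 2.91 to 8.91 and GLB1 (LOC541815) from 7.58 to 10.96, while ae1 was at the floor. Green tissue markers were at or above 4 on all arrays for 9 of 12 probe sets, and the stem secondary wall markers for 4 of 4. The 5 probe sets for ear and floral regulators, ZAG1, zag2, tb1 and the genes listed as ZMM2 and zmm2, were at the floor throughout. So were 4 of 5 for pollen and anther. The exception was a TUA1 probe set, which read 10.55 and 11.21 in Cm489 and 11.15 and 11.78 in F98902. The other TUA1 probe set was at the floor.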

How the data were processed

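The deposited values are log2 signals, 1 per probe set and array, made with GCRMA per the submitters' processing notes; no version or setting is given in the sources used here, and the log base was taken as 2 from the range of 1.18 to 15.28. Array medians ran from 6.99 to 7.11, and the number of arrays limits the precision. No detection calls were used.

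From 17734 probe sets, 113 AFFX and 66 RPTR controls were left out. Gene names came from GEO's platform annotation, updated to RefSeq (Zm-B73-REFERENCE-NAM-5.0): 1452 probe sets had 1 gene (1377 found in RefSeq), 1 had several and 16102 were unnamed. No coordinates or sequences are given. Differences, F98902 minus Cm489, were fitted with limma 3.58.1 in R 4.3.3 (lmFit, eBayes), two-sided, over probe sets at log2 4 or more on at least 2 arrays. The fit was run on data simulated from its own variance model with independent arrays, which cannot show how well it works on these arrays.

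All members, all pathway matches and the 3 nearest named genes per tested member were to be named. In the lists, 4 genes shared only a name; among them sus1, also called ss2, counts as a sucrose synthase gene here. Members and lists were chosen with earlier results of these data known. No pairing by replicate number was assumed. Alternatives were other dim filters, a robust prior, 2 scalings, a raised floor, blocks and leaving out each array.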

Additional observations from a re-analysis of the deposited data

How the results depend on the processing

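The count of members past the threshold was 0, and that of pathway probe sets 0, under all 12 alternatives with limma; with a filter at log2 6 no member was tested. The count over all tested probe sets, 200 (105 higher, 95 lower in F98902), fell to 80 (43 and 37) without the dim filter, 8 (4 and 4) with an intensity-dependent robust prior, 115 (53 and 62) when values below log2 4 were set to 4, and 0 to 0 with any 1 array left out, a fit that takes the single array of a line to be as variable as the other line. A replicate block by number gave 0. Nothing in the labels ties equal numbers together, and the differences within the lines correlated at -0.484 across 17555 probe sets; the crossed pairing, chosen after seeing the data, gave 284. Of 219 values of the 19 tested member and pathway probe sets, 201 kept direction and failed the threshold as before, and 18, of 10 probe sets, turned. With each array shifted to the same median sus1 turned to 0.0132 and zpu1 to 0.0360, and with quantile normalization zpu1 to 0.0209. Leaving out each array gave ranges of -0.41 to 0.78 (bt2), -1.23 to 0.51 (AGP2), -0.13 to 1.60 (agpsl1), -0.36 to 0.29 (sus1), -0.24 to 0.0053 (iso2), -0.76 to 0.30 (iso3), -0.83 to 0.80 (zpu1), -2.73 to 0.59 (ivr2), -1.18 to 1.71 (incw1) and -2.28 to 0.93 (Nkd1). Each of these ranges covers 4 fits, except that of iso3, which fell under the filter without Cm489 replicate 2 or F98902 replicate 1. BMY1 fell under it without either Cm489 array. The cause was not tested.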

Other observations

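A pair of probe sets unnamed here share the number 12134 in their identifiers with the wx1 probe set at the floor, and were chosen after their values were seen. Zm.12134.2.S1_a_at read 8.75 and 6.91 in Cm489 and 9.12 and 9.50 in F98902, and Zm.12134.2.S1_at read 7.67 and 6.88 in Cm489 and 5.92 and 6.13 in F98902. All of these values are above the floor limit of 4. The lines did not overlap on either probe set, as for 38.0% of all tested probe sets. The difference was 1.49 on the first (limma adjusted p = 0.693) and -1.24 on the second (limma adjusted p = 0.521), and neither passed. The sources used here do not say which gene these probe sets measure, so they were not counted for wx1.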
